A study of Mus musculus with 16 samples.

Results

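The regions described here are 279 sites of open chromatin in mouse bone marrow progenitors whose enrichment over the local background was higher after interleukin-1β (IL-1β) than at baseline. They were taken from 24955 regions that were called as peaks in all 16 libraries of an ATAC-seq experiment, called shared regions below, of which they are 1.12%. ATAC-seq maps open DNA by letting the Tn5 transposase cut and tag it. For each shared region the highest fold enrichment in each library was put on a log2 scale and the median of all shared regions in that library was subtracted. A member had a mean over the 8 IL-1β libraries at least 0.5 above the mean over the 8 baseline libraries, and was higher after IL-1β in at least 7 of the 8 mouse samples. The rise in fold therefore chose the members, and it is given below as a description with no test.

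All mice were male C57Bl/6. The cells were bone marrow cells negative for CD3, CD4, B220, Ter119 and Gr1, which the submitters call haematopoietic stem cells; such a lineage-negative fraction also holds committed progenitors. The groups were diabetic IL-1β, control IL-1β, diabetic baseline and control baseline, with 4 libraries each. Diabetes was induced with streptozotocin, which control mice did not receive. Each mouse sample was divided, with 6 h of culture in 10 ng/mL of IL-1β for the IL-1β portion and lysis at once for the baseline portion, so that IL-1β and culture cannot be told apart in these data. The labels do not say whether a sample was 1 mouse or a pool, and p-values measure the spread between these samples.

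IL-1β binds a receptor on the cell surface that signals through MyD88 to NF-kB and to the kinases that activate AP-1, the dimers of Fos and Jun proteins. In mouse blood stem and progenitor cells IL-1 is known to favour myeloid output. Immediate early genes such as Fos, Fosb, Jun and Egr1 are switched on within minutes by many stimuli, without new protein synthesis. Distal open sites in myeloid cells are often enhancers, and many carry AP-1, C/EBP or PU.1 motifs.

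The libraries held 37543 to 72525 peaks each, and the median summit of the shared regions held 27 to 58 reads per library. Of the marker genes listed for stem cells, 27 of 32 had a shared region within 10 kb, beside 19 of 20 for mature neutrophils, 18 of 20 for monocytes and macrophages, 16 of 18 for dendritic cells, 17 of 20 for erythroid cells, 12 of 15 for B cells, 10 of 19 for T and NK cells and 6 of 15 for stroma and endothelium. Of all 21887 protein-coding genes 13838 had one, and markers of several blood lineages thus lay near open regions as often as those of stem cells. An open region near a gene does not show that the gene is expressed. Diabetic baseline replicate 4 stood apart from the other diabetic baseline libraries at part of the members, and results that rest on it are given with and without it. It was also the library with 27 reads at the median summit, the lowest.

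Fold enrichment is a ratio, so it can be higher because more reads lie over the summit or because fewer lie around it. Both parts were recovered from each deposited fold and p-value: the whole reads over the summit, and the background expected from the surrounding 10 kb. Those 10 kb include the summit and the region itself, so reads of the region also count in the background. The difference in fold then splits into a reads term, the centred difference in log2 summit reads, and a background term, the centred difference in log2 background, and equals the first minus the second. In 216 members (77.4%) the reads term was the larger part, and they are called reads-led. In the other 63 members (22.6%) a lower background made up the larger part, and they are called background-led. This division was made after the values were seen. Without diabetic baseline replicate 4, with both terms recomputed, 98 of 318 members were background-led.

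Sequence was at hand for gene starts, as 250 bases before to 50 after each start listed by RefSeq for GRCm38.p6. Of the members, 35 held 41 such promoters, 11 of them in reads-led and 30 in background-led members. The AP-1 motif TGANTCA was searched on both strands. It occurred in 5 of the 11 reads-led promoters (45.5%) and in 2 of the 30 background-led promoters (6.67%). Its share was 4.38% of the 11188 promoters in all shared regions and 7.81% of all 32851 listed promoters. Some genes, such as Synj2 and Ubb, entered with several starts, so the promoters are not all separate. Shown are the 5 reads-led promoters with the AP-1 motif, written 5′ to 3′ on the strand of the gene with the motif in capitals. They belong to Creb5, a CREB family transcription factor, P2ry14, a receptor for UDP-sugars, Smim14, a small membrane protein, Morrbid, a long non-coding RNA that restrains the death gene Bcl2l11 in short-lived myeloid cells, and Gm33728, a predicted gene.
Creb5, chr6:53573289-53573375, plus strand: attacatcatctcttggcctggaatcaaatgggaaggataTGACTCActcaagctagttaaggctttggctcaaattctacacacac
P2ry14, chr3:59153648-59153734, minus strand: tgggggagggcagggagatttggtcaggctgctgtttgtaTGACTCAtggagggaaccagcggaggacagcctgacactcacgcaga
Smim14, chr5:65484059-65484145, minus strand: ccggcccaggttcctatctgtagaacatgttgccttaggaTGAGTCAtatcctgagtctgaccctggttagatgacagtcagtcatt
Morrbid, chr2:128429306-128429392, minus strand: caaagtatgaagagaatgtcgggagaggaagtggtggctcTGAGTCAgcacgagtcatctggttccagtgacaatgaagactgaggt
Gm33728, chr10:21252412-21252492, minus strand: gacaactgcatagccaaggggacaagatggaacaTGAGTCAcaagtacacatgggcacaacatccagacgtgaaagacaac

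The motif began 45 bases before the start in Creb5, 202 before it in P2ry14, 44 in Smim14, 1 in Morrbid and 216 in Gm33728. In the background-led promoters the STAT motif TTCNNNGAA occurred in 4 of 30 (13.3%), against 6.27% of those in all shared regions, and the CREB motif TGACGTCA in 3 of 30 (10.0%), against 3.63%. The E-box CACGTG (13.3% against 11.2%), the GATA motif AGATAA (6.67% against 5.33%) and the NF-kB motif (3.33% against 2.58%) were closer to all shared regions. Below all shared regions were the C/EBP (6.67% against 7.70%), PU.1 (13.3% against 13.6%), RUNX (10.0% against 11.95%) and IRF (3.33% against 6.56%) motifs. So were the glucocorticoid receptor (3.33% against 3.52%) and KLF (0% against 3.83%) motifs. CREB is the factor through which cAMP and calcium switch on immediate early genes. The 3 promoters with the CREB motif are shown with it in capitals, and belong to Btg2, an antiproliferative immediate early gene, Dusp1, the phosphatase that switches off p38 and JNK kinases, and Tra2a, a splicing factor.
Btg2, chr1:134079274-134079361, minus strand: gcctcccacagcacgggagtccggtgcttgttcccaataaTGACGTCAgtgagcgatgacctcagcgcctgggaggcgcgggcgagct
Dusp1, chr17:26508568-26508655, minus strand: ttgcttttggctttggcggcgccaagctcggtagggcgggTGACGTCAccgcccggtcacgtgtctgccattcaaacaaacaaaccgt
Tra2a, chr6:49264032-49264119, minus strand: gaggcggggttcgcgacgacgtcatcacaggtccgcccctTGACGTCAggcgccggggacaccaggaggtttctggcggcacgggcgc

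The promoter of Fosb, the Fos family gene at which the difference was largest, held none of the 12 motifs searched and is shown whole as the start of the densest run of members.
Fosb, chr7:19309996-19310295, minus strand: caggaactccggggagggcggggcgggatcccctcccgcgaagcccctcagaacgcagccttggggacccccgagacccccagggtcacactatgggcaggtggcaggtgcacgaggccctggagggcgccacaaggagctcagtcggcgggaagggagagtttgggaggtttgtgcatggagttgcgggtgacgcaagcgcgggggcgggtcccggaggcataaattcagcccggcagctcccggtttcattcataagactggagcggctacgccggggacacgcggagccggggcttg

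The NF-kB motif, GGANTTTCC or GGANTTCCC, occurred in 1 of the 41 member promoters (2.44%) and in 2.58% of those in all shared regions. PU.1, written GAGGAAG, occurred in 4 of the 11 reads-led promoters (36.4%) and in 13.6% of those in all shared regions, and the KLF motif GGGTGTGG in 2 of the 11 (18.2%) against 3.83%. C/EBP (9.09% against 7.70%), RUNX (18.2% against 11.95%), IRF (9.09% against 6.56%) and GATA (9.09% against 5.33%) were also above all shared regions. The E-box was at 9.09% against 11.2%, and the STAT, CREB, glucocorticoid receptor and NF-kB motifs were at 0% of the 11. The letters TGANTCA and TGACGTCA cannot match the same bases. A match says that the letters are present, and with 11 and 30 promoters the shares are rough.

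The median member differed by 0.58 on the log2 scale, with a range of 0.50 to 1.39, against a median of 0.04 over all shared regions. In 229 members the fold was higher after IL-1β in all 8 mouse samples, and in 50 members in 7. In 80 members the centred fold of every IL-1β library lay above that of every baseline library, a property of 138 shared regions (0.553%), which the rule favours. All 279 were higher on average in both phenotypes, with a median difference of 0.60 in diabetic and 0.62 in control samples. Across the mouse samples the median difference of the members ran between 0.53 and 0.73 in diabetic and between 0.48 and 0.79 in control samples.

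**Figure D1:**
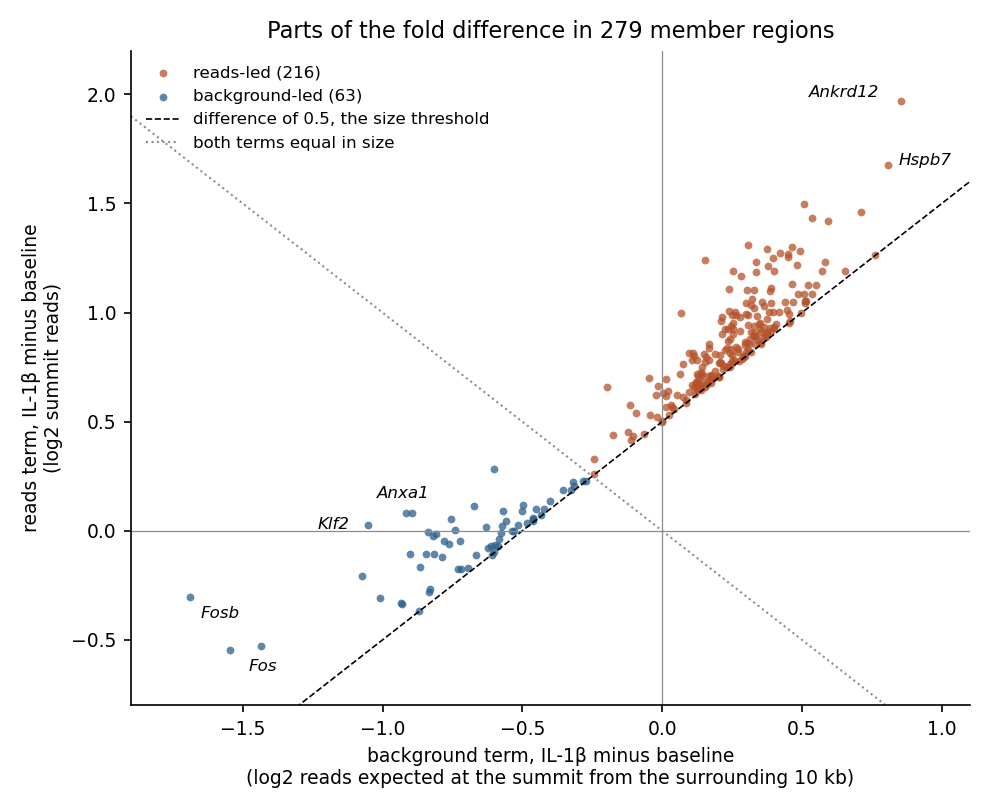
Reads term (vertical, log2 summit reads, IL-1β minus baseline) against background term (horizontal, log2 background from the surrounding 10 kb) for each of the 279 members; the dashed line marks a fold difference of 0.5 and the dotted line terms of equal size. The 216 reads-led members lie at the upper right with median terms of 0.85 and 0.25, and the 63 background-led members at the lower left with median terms of -0.01 and -0.63.

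Reads-led members had more reads over the summit after IL-1β. Their median summit held 30 reads after IL-1β and 18.5 at baseline, while the median over all shared regions was 35.5 after IL-1β and 44 at baseline. Reads in the 10 kb, which include those over the summit, were also somewhat more numerous, with medians of 167 after IL-1β and 145 at baseline. The median reads term of 0.85 therefore exceeded the median fold difference of 0.58. In 208 of the 216 the reads term alone was at least 0.5, and in 199 the background term was above 0. Baseline summits in this class were shallow, and a few reads in one library move their values.

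Background-led members as a class had no more summit reads after IL-1β, relative to other shared regions. Their median summit held 80 reads after IL-1β and 105 at baseline, and after centring the median reads term was -0.01, with 34 of the 63 below 0. What differed was their surroundings, with a median of 554 reads in 10 kb after IL-1β and 1138 at baseline. The background term was -0.5 or lower in 48 of the 63, against 163 of all shared regions (0.653%). In these members the fold therefore was higher with no higher median of centred summit reads, and the name of a strong rise holds for them only as enrichment over the local background.

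The largest difference lay in the body of Fosb (chr7:19307722-19308969), 1.39 ± 0.40 (SD over 8 mouse samples). Its fold was 7.65, 9.62, 9.33 and 10.2 in diabetic IL-1β libraries and 8.98, 9.30, 8.88 and 10.2 in control IL-1β libraries, against 3.94, 4.71, 3.51 and 5.93 in diabetic baseline and 4.13, 3.22, 3.38 and 3.07 in control baseline libraries. The 2 sets of 8 libraries did not overlap. Summit reads, which are not scaled for depth, went the other way, with 62 to 84 (median 73.5) after IL-1β and 76 to 147 (median 114.5) at baseline. Reads in the surrounding 10 kb numbered 393 to 581 (median 475) after IL-1β and 816 to 2909 (median 2006) at baseline, so that the surroundings were lower by a larger factor than the summit was.

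Klf2, a transcription factor of quiescence and leukocyte trafficking, showed the same arrangement at its start (chr8:72318651-72320399, difference 1.08 ± 0.29). Its fold before centring was 6.10 to 8.78 (median 7.12) after IL-1β and 3.01 to 6.11 (median 3.60) at baseline. On that scale every IL-1β library but diabetic replicate 1 lay above the highest baseline library, diabetic replicate 4. After centring the groups did not overlap, with the lowest IL-1β library at -0.494 and diabetic baseline replicate 4 the highest baseline library at -0.549. Summit reads were 110 to 154 (median 123.5) after IL-1β and 107 to 171 (median 153) at baseline, and reads in 10 kb had medians of 1114 after IL-1β and 2859 at baseline. Klf6, an injury-induced relative of Klf2, had 8.62-fold median enrichment at its start after IL-1β against 4.68-fold at baseline (chr13:5860671-5861967, difference 0.98 ± 0.25), with no overlap. It was background-led, with 110 to 148 summit reads after IL-1β and 136 to 166 at baseline and median surrounding reads of 927 and 1977, and its difference was 0.49 when the mean over summits took the place of the highest. Anxa1, which encodes the glucocorticoid-induced anti-inflammatory protein annexin A1, had a median fold of 6.79 after IL-1β and 3.65 at baseline at its start (chr19:20389109-20389684, difference 1.0035 ± 0.30), again with no overlap. It too was background-led, with a reads term of 0.08, 45 to 78 summit reads after IL-1β and 37 to 85 at baseline, and median surrounding reads of 540 and 1226. Fos itself (chr12:85473397-85474722, difference 0.91 ± 0.46) had 51 to 77 summit reads after IL-1β and 73 to 138 at baseline. Its surrounding reads had medians of 641.5 after IL-1β and 2225 at baseline.

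Among reads-led members the largest difference lay 3491 bp from Ankrd12, which encodes an ankyrin repeat cofactor of nuclear receptors (chr17:65961439-65962212, difference 1.12 ± 0.20). Its summit held 40, 46, 34 and 39 reads in diabetic IL-1β and 59, 30, 27 and 45 in control IL-1β libraries, against 12, 9, 13 and 8 in diabetic baseline and 18, 11, 11 and 10 in control baseline libraries. Every IL-1β library held more reads than every baseline library. Its surrounding reads had medians of 205.5 after IL-1β and 95.5 at baseline, so the reads term of 1.97 was well above the difference in fold.

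**Figure D2:**
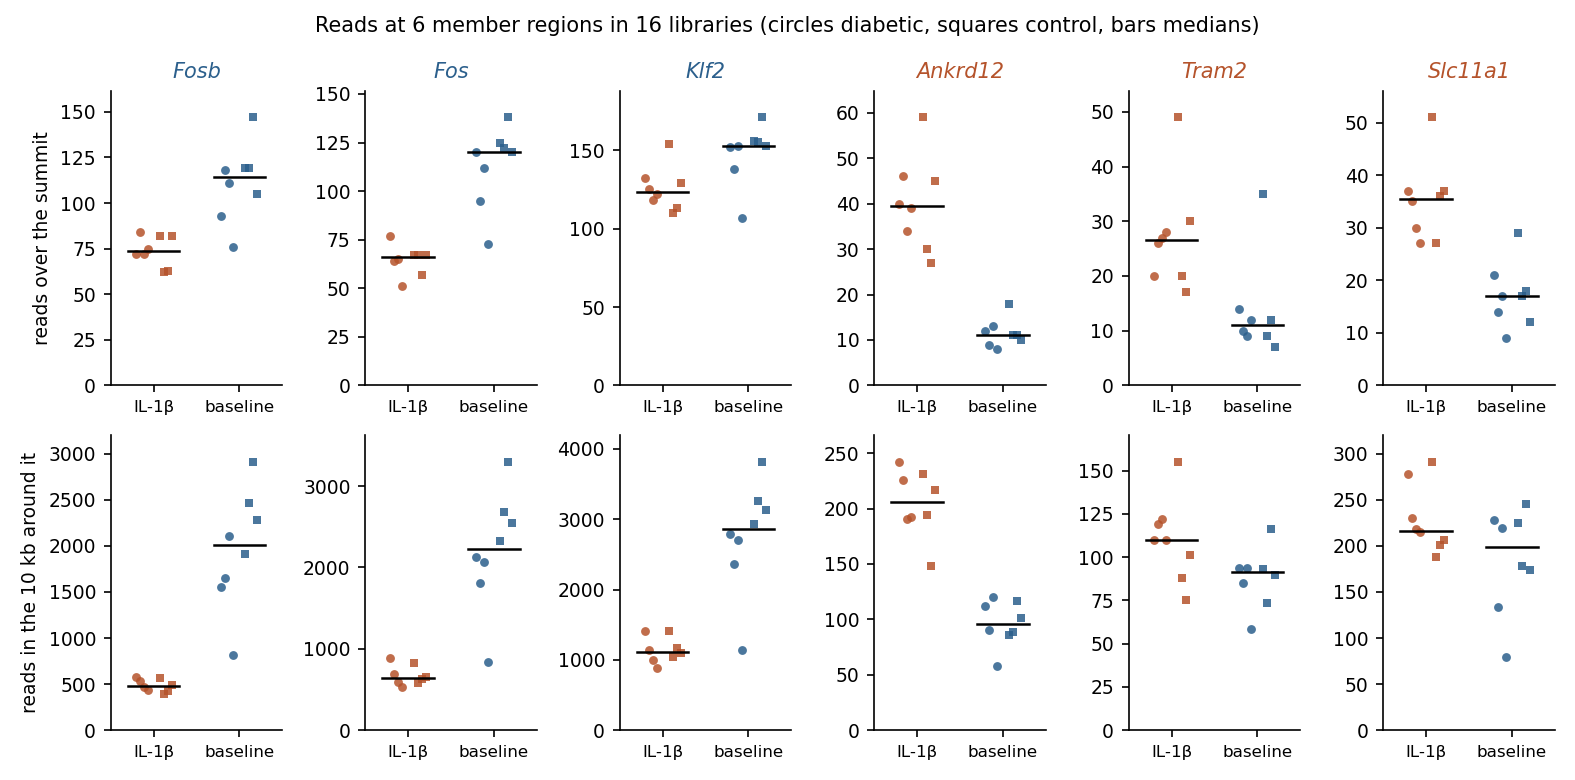
Reads over the summit (upper row) and reads in the surrounding 10 kb (lower row) at 6 members, with 1 point per library, diabetic as circles and control as squares, IL-1β in the left column of each panel and baseline in the right, and bars at the medians. At Fosb, Fos and Klf2 the surrounding reads are lower after IL-1β, with medians of 475, 641.5 and 1114 against 2006, 2225 and 2859 at baseline; at Ankrd12, Tram2 and Slc11a1 the summit reads are higher, with medians of 39.5, 26.5 and 35.5 against 11.0, 11.0 and 17.0.

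A region in the body of Tram2, a protein of the endoplasmic reticulum that takes part in collagen synthesis, differed by 1.004 ± 0.59 (chr1:21014458-21014929). Its summit held 17 to 49 reads after IL-1β and 7 to 35 at baseline, and the overlap came from the control baseline replicate 1 library with 35 reads. Slc11a1, the phagosomal metal transporter of macrophages, had 27 to 51 reads after IL-1β and 9 to 29 at baseline at a region in its body (chr1:74381441-74382029, difference 0.92 ± 0.32). Fbxo31, a subunit of an SCF ubiquitin ligase, had a fold of 5.55 to 8.89 after IL-1β and 3.68 to 4.92 at baseline inside its body (chr8:121573315-121573674, difference 0.93 ± 0.13), the smallest spread between mouse samples among the members named so far. A region 1231 bp from Otud4, a deubiquitinase (chr8:79678986-79679360), differed by 0.94 ± 0.34.

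Another pair of the largest differences had no protein-coding gene within 50 kb. At chr11:8759746-8760226, 65470 bp from the nearest gene, the summit held 12 to 33 reads after IL-1β and 5 to 22 at baseline (difference 1.09 ± 0.47). At chr2:71643949-71644487, 97195 bp from the nearest gene, it held 20 to 68 reads after IL-1β and 9 to 26 at baseline (difference 0.99 ± 0.28). At the first of these sites the surroundings of most libraries were at the lowest background that the peak caller allows in that library, which was the case in 9.41% of member values and 4.85% of all values. For a value at that floor the local reads can be fewer than the floor states.

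The place of members relative to genes, which the rule did not use, differed between both classes. Of reads-led members 13 of 216 (6.02%, exact 95% interval 3.24 to 10.1%) lay within 1 kb of a gene start, against 10357 of all shared regions (41.5%). Gene bodies away from a start held 89 (41.2%) of them against 30.4% of all shared regions, and 35 (16.2%) lay beyond 50 kb from any protein-coding gene against 6.44%. With regions near starts included, 101 reads-led members (46.8%) lay in a gene body, against 71.0% of all shared regions. Background-led members went the other way, with 35 of 63 (55.6%, interval 42.5 to 68.1%) within 1 kb of a start and 1 (1.59%) beyond 50 kb. All members together had 48 (17.2%) at starts, a figure that joins these opposite shares and was 33.9% of 289 members when the mean over summits took the place of the highest. Without diabetic baseline replicate 4 the share at starts was 5.45% of 220 reads-led and 58.2% of 98 background-led members. The intervals cover counting error only, and no test of location was run on a set chosen from the data. Place was not compared at equal depth, and the median baseline summit held 18.5 reads in reads-led members and 44 over all shared regions.

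**Figure D3:**
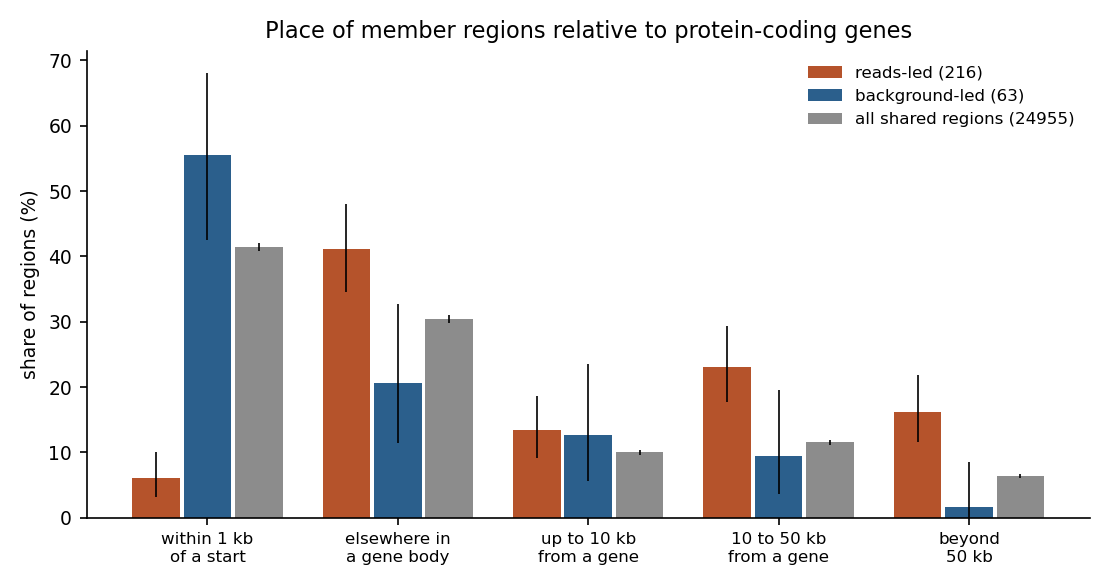
Share of regions (%) by place relative to protein-coding genes for the 216 reads-led members, the 63 background-led members and all 24955 shared regions, with exact 95% binomial intervals that cover counting error only. Within 1 kb of a start the shares are 6.02%, 55.6% and 41.5%, and beyond 50 kb they are 16.2%, 1.59% and 6.44%.

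Reads-led members were narrow, with a median width of 546.5 bp, while background-led members spanned 747 bp and all shared regions 692 bp. A reads-led member lay a median of 24378 bp from the nearest start and a background-led member 954 bp. Both ends of a gene were counted where it had no listed start. Among the 172 members away from starts with a stranded nearest start, 84 (48.8%) lay upstream of it, against 44.6% of such shared regions. Members occurred on every chromosome, from 0.375% of shared regions on chromosome X and 0.605% on chromosome 4 to 1.67% on chromosome 8. Chromosome Y had 7 shared regions, of which 1 was a member.

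Most members stood alone. Within 10 kb of 212 protein-coding genes lay at least 1 member, but only 18 of these genes had 2 or more, and 92 members had no gene within 10 kb. The nearest shared region was itself a member for 4 of 216 reads-led members (1.85%) and for 292 of all shared regions (1.17%). For background-led members it was a member in 13 of 63 cases (20.6%). Regions closer than 10 kb share part of the reads counted around them, so that neighbouring background terms are not independent.

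Joined where they lay within 25 kb of each other, 35 members formed 16 runs, 9 of which held background-led members alone. The densest lay at Fosb, where 4 of the 5 shared regions in 14092 bp (chr7:19307722-19321813) were members. They were the body region above, the start (difference 1.0009), a region 6195 bp from the gene (0.53) and one 11327 bp from it (0.89), all background-led. The start held 40 to 65 summit reads after IL-1β and 54 to 110 at baseline, with median surrounding reads of 440 and 1666. At Fos all 3 shared regions in the 19859 bp from the first to the last member of the run were members, with differences of 0.91, 0.72 and 0.61. Each run is bounded by its own members. Within 10 kb of the gene, members were 2 of 3 shared regions at Fos and 3 of 5 at Fosb.

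Both shared regions at Klf2, at Jun and at Jund were members, all of them background-led. Jun, the main partner of Fos in AP-1, had differences of 0.81 and 0.71, and summit reads at its start of 113 to 170 after IL-1β and 146 to 175 at baseline. Jund, the constitutive Jun family member, had differences of 0.75 and 0.67. Reads in 10 kb around the Jun start had a range of 1006 to 1710 after IL-1β and 1739 to 3194 at baseline, so that the groups did not overlap.

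Further background-led runs lay at Il1r2, at the neighbours Lilr4b and Lilrb4a and, named after their values were seen, at Trib1 and Dennd4a. Il1r2, the decoy receptor that binds IL-1 without signalling, had members at its start and in its body (differences 0.50 and 0.55). Its start held 44 to 81 summit reads after IL-1β and 42 to 119 at baseline, and the reads around it numbered 272 to 556 after IL-1β and 255 to 1397 at baseline. The 255 were in diabetic baseline replicate 4, the library with the lowest median background of shared regions. The other 7 baseline libraries held 724 or more. Lilr4b and Lilrb4a, inhibitory receptors of myeloid cells, had differences of 0.74 and 0.56. Trib1, a pseudokinase that promotes breakdown of C/EBPα, had differences of 0.59 and 0.52.

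Runs of reads-led members included those at Kcnn4 and, named after their values were seen, at Rptor and Lipc. Kcnn4, the calcium-activated potassium channel of blood cells, had 2 of its 3 shared regions as members, its start with 50 to 82 summit reads after IL-1β and 25 to 52 at baseline (difference 0.66) and a region 1855 bp away with 37 to 66 after IL-1β and 8 to 39 at baseline (0.83). At the start every IL-1β library but control replicate 2, with 50 reads, held more reads than every baseline library. Rptor encodes the mTORC1 subunit raptor, and its 2 members differed by 0.61 and 0.54. Lipc encodes hepatic lipase, and its members differed by 0.51 and 0.50.

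Of the 279 members 40 lay within 10 kb of a gene of the 26 lists compared, against 1253 shared regions near those genes, a share of 3.19% beside 1.12% of all shared regions. The lists were chosen with earlier results of these data known, so the higher share is a description and lends no support. The AP-1 and immediate early list held 17 members among 89 shared regions (19.1%), 16 of them background-led. Over all 89 the median difference was 0.16, the median reads term -0.01 and the median background term -0.15, and 21 had a background term of -0.5 or lower. Beside the genes above the list included, with Atf3 and Egr1 named after their values were seen, Dusp1 at its start (difference 0.83, background-led) and 6074 bp away (0.63, reads-led), Atf3, a stress-induced ATF factor (0.55), Egr1, a zinc finger factor (0.51), and Nr4a1, the orphan nuclear receptor Nur77 (0.50).

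**Figure D4:**
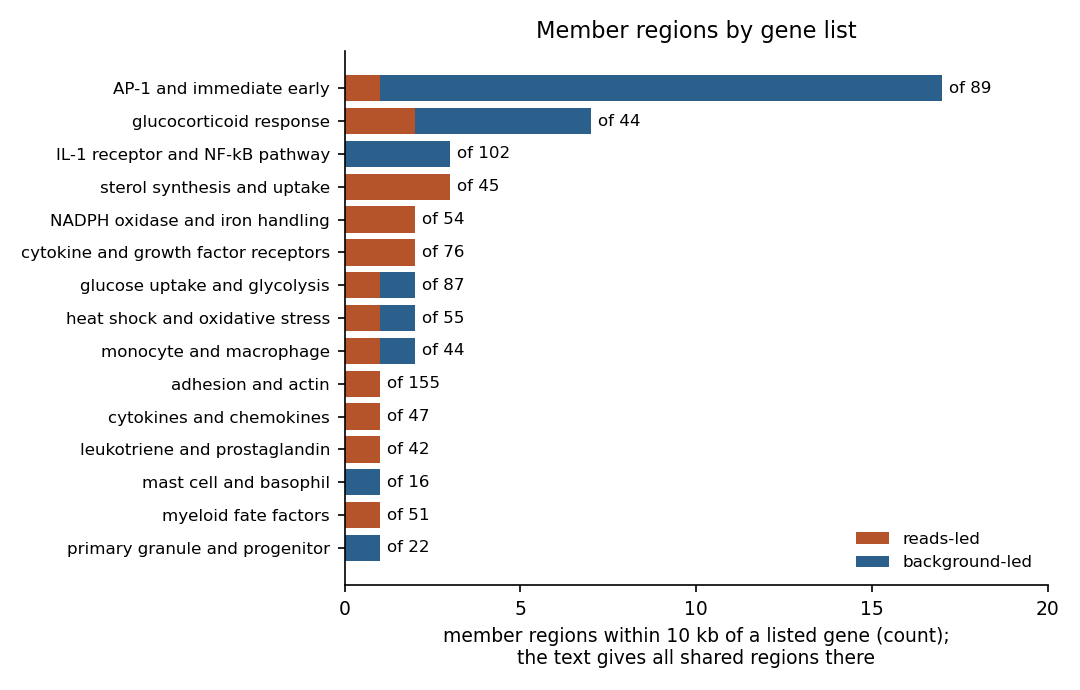
Number of members within 10 kb of the genes of each list that had any, divided into reads-led and background-led, with the number of shared regions near those genes beside each bar. AP-1 and immediate early genes had 17 members of 89 shared regions, 16 of them background-led, and glucocorticoid response genes 7 of 44, 5 of them background-led.

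Glucocorticoid response genes held 7 members of 44 shared regions, 5 of them background-led. They lay at Anxa1, Dusp1, Il1r2 and, named after their values were seen, Tsc22d3 and Sgk1, and Dusp1 and Il1r2 stand on another list too. Tsc22d3, which encodes the glucocorticoid-induced leucine zipper, had a start region (difference 0.61) with median summit reads of 58 after IL-1β and 90.5 at baseline and median surrounding reads of 356.5 and 844.5. Sgk1, a glucocorticoid-induced kinase, was reads-led, with a reads term of 0.9985 and a difference of 0.51.

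The IL-1 receptor and NF-kB pathway list held 3 members of 102 shared regions, all background-led. They were both Il1r2 regions and one in the body of Nfkbiz, the IκB family protein IκBζ that NF-kB induces after IL-1. At Nfkbiz the fold before centring was 9.30 to 10.3 after IL-1β and 6.12 to 8.83 at baseline, with no overlap. After centring (difference 0.54) the groups overlapped, with control IL-1β replicate 1 at -0.105 and diabetic baseline replicate 4 at -0.017. Summit reads at Nfkbiz were 93 to 127 after IL-1β and 103 to 161 at baseline. The median difference of this list was 0.06, near the 0.04 of all shared regions. A region in Irak2, a kinase of the IL-1 receptor complex, reached the size (0.59) but was higher in only 6 of 8 mouse samples, so that it was not a member; it was singled out after its value was seen.

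Reads-led members near listed genes were few per list. Msmo1, a sterol oxidase of cholesterol synthesis, held 32 to 64 summit reads after IL-1β and 10 to 29 at baseline (chr8:64726081-64726807, difference 0.75), with no overlap. Gch1, which makes the tetrahydrobiopterin used by nitric oxide synthase, held 24 to 49 reads after IL-1β and 8 to 29 at baseline (0.82). Hspb7, a small heat shock protein, had the second largest reads term among named members, 1.68, with 14 to 42 reads after IL-1β and 8 to 16 at baseline, and lay 205 bp from the gene (0.87).

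Ptger2, the prostaglandin E2 receptor EP2 (0.54), Pfkfb3, which activates glycolysis (0.57), Per3, a circadian clock protein (0.77), Ifnar2, a chain of the type I interferon receptor (0.52), and Capg, an actin-capping protein (0.51), each had 1 reads-led member. A reads-led region within 10 kb of Il17ra lay nearest to Kdm5a (0.78), and another within 10 kb of Tgfb1 lay inside Ccdc97 (0.79). Background-led were Trem1, an amplifying receptor of neutrophils and monocytes (0.70), Slc2a3, the glucose transporter GLUT3 (0.65), Slc7a11, the cystine transporter (0.60), and Srgn, the granule proteoglycan serglycin (0.55). Trem1 had a median of 66 summit reads after IL-1β and 109.5 at baseline.

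No member lay near the genes of the lists for Jak, Stat and Socs, secondary granules and mature neutrophils, interferon response, cell cycle, stem cells, erythroid cells, megakaryocytes, B cells, T and NK cells, dendritic cells or stroma. These lists had 7 to 76 shared regions each. With 1.12% of all shared regions being members, a count of 0 in such a list lies near that share. The stem cell list had 67 shared regions, with a median difference of 0.03, and the cell cycle list 76, with a median of 0.08. Fixed by a size threshold, membership does not show that the regions of these lists did not change.

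Some members beyond the lists are named after their values were seen. Background-led starts lay at Btg2 (0.80), Rhob, a stress-induced small GTPase (0.80), the histone gene H2ac6 (0.80), the clock gene Per2 (0.79) and the ubiquitin gene Ubb (0.54). At Btg2 the reads in 10 kb had medians of 818.5 after IL-1β and 1688 at baseline, and at H2ac6 442.5 and 1074. Reads-led members lay in Adgrg1, an adhesion G-protein-coupled receptor of blood stem cells (0.87), Rara, the retinoic acid receptor alpha (0.70), Prex1, a Rac activator of neutrophils (0.73), and Runx2, a Runt family factor (0.56). One lay 11300 bp from Itgam, which encodes CD11b (0.62), with 63.5 median summit reads after IL-1β and 37 at baseline.

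Around the threshold the values were continuous. The members closest to it were at Nr4a1 (0.50007), Polk (0.50012) and Lonrf1 (0.50275), and the regions closest below it were at Tiam1 (0.49943), Notch2 (0.49783) and Dock6 (0.49729).

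**Figure D5:**
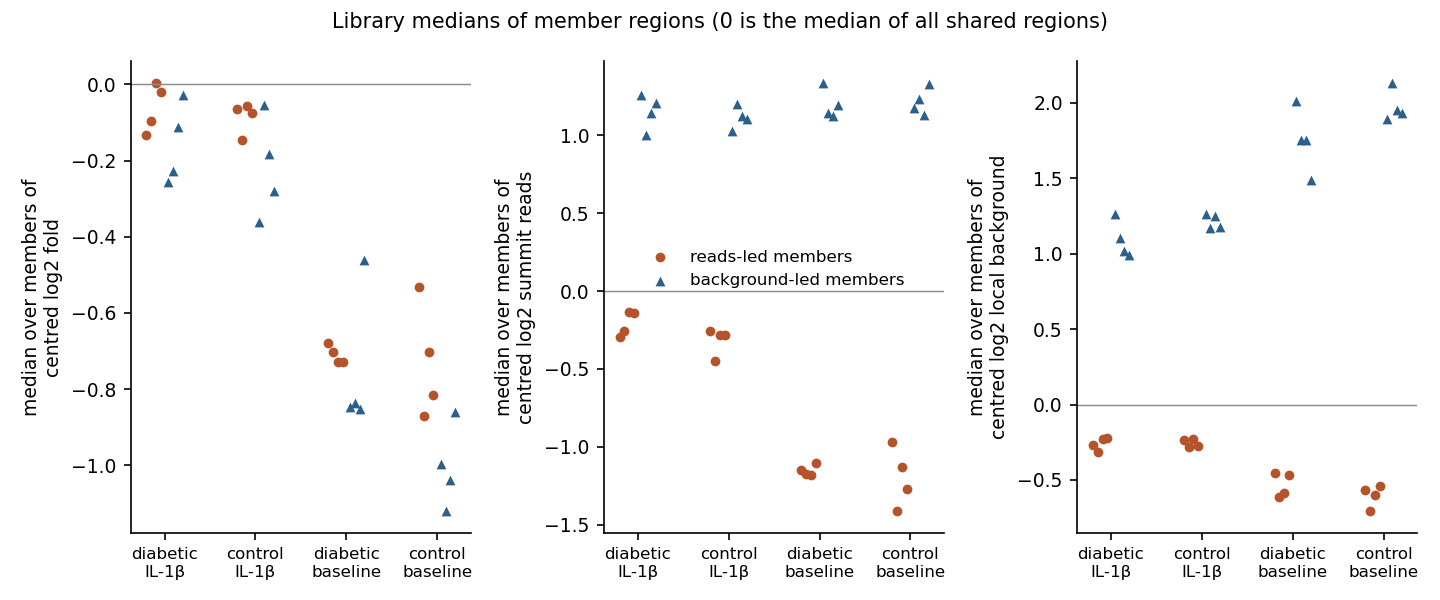
Median over the members of each class, 1 point per library, of centred log2 fold (left), centred log2 summit reads (middle) and centred log2 local background (right), where 0 is the median of all shared regions in that library. Reads-led medians of summit reads lie between -0.45 and -0.14 in IL-1β libraries and between -1.42 and -0.97 in baseline libraries; background-led medians of the background lie between 0.99 and 1.27 in IL-1β libraries and between 1.49 and 2.13 in baseline libraries.

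Per library, the reads-led members had median summit reads below those of all shared regions throughout, by less after IL-1β. Their centred medians were -0.45 to -0.14 in the IL-1β libraries and -1.42 to -0.97 in the baseline libraries. Background-led members had a summit above that of the median shared region in every library, 1.0 to 1.26 after IL-1β and 1.12 to 1.34 at baseline. Their surroundings were richer in reads than those of other shared regions throughout, with centred medians of 0.99 to 1.27 after IL-1β and 1.49 to 2.13 at baseline. That summit reads differ in the one class and surroundings in the other is fixed by how the classes were divided.

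Diabetic and control samples were compared next, since that contrast did not choose the members. limma was fitted over all 24955 shared regions with Benjamini-Hochberg adjustment at 0.05. At baseline no member passed the threshold, against 1 of all shared regions (0.00401%), and the smallest adjusted p among members was 0.62. After IL-1β no member and no shared region passed (0%), with a smallest adjusted p of 0.9998 among members. The difference of the IL-1β change between diabetic and control samples passed in no member and no shared region (0%) either, with a smallest adjusted p of 0.9997; the rule on pairs limits this contrast in part.

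Without adjustment 65 of 279 members (23.3%) had p below 0.05 in limma at baseline, against 7.92% of shared regions, and 33 of them were background-led, all higher in diabetic samples. Higher in diabetic samples were 51 members (18.3%) against 3.81% of shared regions, and lower were 14 (5.02%) against 4.11%. The median coefficient, diabetic minus control, was 0.30 in background-led and 0.00 in reads-led members, beside 0.04 over all shared regions. Dusp1 at its start had the smallest p, with a fold of 3.72, 5.03, 3.97 and 6.50 in diabetic baseline and 3.43, 3.37, 3.14 and 3.22 in control baseline libraries, which did not overlap (limma difference 0.60 ± 0.15 SE, adjusted p 0.62). Its surrounding reads were 2073, 1664, 2090 and 822 in diabetic and 2329, 2478, 3071 and 2427 in control baseline libraries.

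Diabetic baseline replicate 4 carried much of that difference. The median centred fold of background-led members was -0.46 in that library and -0.85, -0.84 and -0.85 in diabetic baseline replicates 1 to 3, against -1.12 to -0.86 in control baseline libraries. Without it the unadjusted count in limma was 31 members (11.1%) against 3.5% of shared regions, 9 of them background-led, and the median coefficient of background-led members was 0.18. After IL-1β 10 members (3.58%) had an unadjusted p below 0.05 against 4.17% of shared regions, and for the difference of the change 10 members (3.58%) against 2.8%.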

How the data were processed

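Each library came from 50000 cells, with Tn5 tagging, a size selection that left out fragments above 1200 bp and sequencing of 50-bp single reads, per the labels' protocols. Per the submitters' processing notes the build was mm10, the aligner Bowtie2 2.2.6 and the peak caller MACS2 2.1.1 are named among the tools, and Trim Galore 1.8, FastQC 0.11.3, edgeR and DiffBind 2.4.8 beside them, with no role or order stated there; read shifting and removal of duplicates are not given in the sources used here, and either would move summits or change reads per summit. Each deposited peak list belongs to 1 library and gives a fold (a ratio over the local background), a −log10 p, a −log10 q, a score and a summit position, all made by the authors; the deposited scores were not used.

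Peaks that touched were merged. Members were found by the rule stated at the opening, and the members, gene lists and tests were chosen with earlier results of these data known. The deposited fold equals (n + 1) / (λ + 1) and its −log10 p is that of a Poisson distribution of mean λ, which gave whole summit reads n and background λ within 0.001 for at least 99.9987% of summits per library. Above each library's floor (0.856 to 1.71 reads) λ was in every value a multiple of 147/10000, so that reads in 10 kb are λ divided by 0.0147, and at the floor they are the floor on that scale. Depth is known only through these reads. Intervals are on counts of regions and cover counting error only, and background terms of neighbouring regions are not independent. Reads without molecular identifiers are not independent molecules.

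Gene positions were RefSeq's for GRCm38.p6, which shares the coordinates of mm10 on its main chromosomes. Of 21887 protein-coding genes 17492 had a listed start, and both ends were used for the other 4395. Of 560 list symbols 558 matched. A gene is named for a region as the nearest protein-coding gene within 50 kb or the list gene within 10 kb, which is position alone. Named regions are the 12 largest differences with at most 1 per gene, the 8 genes with most members within 10 kb, the 3 largest members per list, members past the threshold in a phenotype contrast (none) and the 3 regions either side of 0.5; all other regions in the text were chosen after their values were seen.

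Phenotype contrasts were fitted with limma 3.58.1 in R 4.3.3 with 4 group means and a trended variance; other steps used Python 3.11.15, numpy, pandas and scipy. Steps and contrasts were run on simulated data. The simulated phenotype shifts were larger than the phenotype differences given above, so differences as small as those were not tried. Libraries with the same number within a phenotype come from the same divided sample, per the series design; deviations from group means correlated by 0.24, 0.17, -0.12 and 0.26 in diabetic samples 1 to 4 and by 0.29, 0.14, -0.03 and -0.07 in control samples 1 to 4. Alternatives were no centring, cyclic loess, the rule on summit reads, the mean over summits, a −log10 q of 5 or more, an overlap of 100 bp, 8 of 8 pairs, a size of 1, regions in 12 or more libraries, a replicate block, and each library left out. Sequence outside listed promoters was not used here. Results at 1 gene near members are not reported here.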

Additional observations from a re-analysis of the deposited data

Results flagged for a closer look

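Dixon's test was applied to 60 sets of 4 libraries of one group, at the members with the largest differences and at the medians of the member classes, and chance flags about 1 in 20 such sets. It marked 3 values. The median centred log2 fold of background-led members was -0.46 in diabetic baseline replicate 4, far above the other 3 diabetic baseline libraries, which lay at -0.85, -0.84 and -0.85; the gap took up 0.954 of the range. The same library stood apart at the Klf2 start (chr8:72318651-72320399), with a centred log2 fold of -0.55 and a ratio of 0.852. There it held 1135 reads in the surrounding 10 kb, and the other diabetic baseline libraries held 2788, 2360 and 2703. These reads are not scaled for depth. The median background of shared regions was 2.06 reads in this library and 3.38, 3.57 and 4.12 in the others. At the Klf6 start (chr13:5860671-5861967) control baseline replicate 4 had a centred log2 fold of -0.96, apart from the other control baseline libraries with a ratio of 0.857; its reads in 10 kb were 1916, and the others held 2199, 2315 and 2623.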

How the results depend on the processing

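The number of members, 279, moved with the rule. It was 92 without centring, where the median of all shared regions shifted by -0.10, 944 on summit reads, 101 with peaks of −log10 q of at least 5, and 7 at a size of 1. Of the 944 regions found on summit reads 209 were members (74.9% of members, 22.1% of the 944), and none of them was background-led. The share of members at starts, 17.2%, was 31.7% with −log10 q of at least 5 and 42.9% at a size of 1. Genes with 2 or more members numbered 18, against 7 without centring, 7 with −log10 q of at least 5 and 1 at a size of 1. Members near listed genes numbered 40, against 22, 25 and 4 under those settings. Members that hold a listed promoter numbered 35, against 12 without centring and 2 at a size of 1. Background-led members numbered 63, against 25 without centring, 4 at a size of 1 and 34 when the division was made by summit reads lower than 0, an alternative added after seeing the data. Cyclic loess gave 231 members, of which 228 were shared, and moved none of these counts by 1.5 times. The mean over summits gave 289, of which 202 were shared; with it, in counts added after seeing the data, 33.9% of members lay at starts, 81 held a listed promoter and 102 were background-led, while 21 genes had 2 or more members and 36 members lay near listed genes. It put the Klf6 start at 0.49, under the size of 0.5, and on summit reads Klf6 stood at 0.087 and Anxa1 at 0.088.

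Leaving out 1 library at a time gave 245 to 318 members, 14.1 to 21.7% at starts, 13 to 24 genes with 2 or more members, 34 to 48 near listed genes, 28 to 50 members with a promoter and 47 to 98 background-led members, the 98 without diabetic baseline replicate 4, also with both terms recomputed, when 58.2% of them lay at starts against 55.6%. The phenotype contrasts stayed at 0 members in limma in every fit, the replicate block included (consensus correlation 0.098), which changed no call.

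On summit reads 18 named regions had a difference below 0, each of them background-led: -0.30, -0.56 and -0.17 at Fosb, -0.54 and -0.10 at Fos, -0.20 at Klf2, -0.00209 at Dusp1, -0.11 at Lilr4b, -0.058 at Jun, -0.31 at Trem1, -0.12 at Jund, -0.35 at Slc7a11, -0.11 at Lilrb4a, -0.29 and -0.37 at Il1r2, -0.17 at Srgn, -0.068 at Nfkbiz and -0.11 at Nr4a1. Depth limits reads-led members most, with a median of 18.5 baseline reads at the summit.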
